A study of Mus musculus with 6 samples.

Results

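The genes of Wnt signaling were examined in macrophages of mice with a knockout (KO) of MSR1, macrophage scavenger receptor 1, and of wild-type (WT) controls of the same background. The members were all rows of the deposited table whose symbol named a Wnt ligand, a Frizzled receptor, a Dickkopf (Dkk) or secreted Frizzled-related protein (Sfrp) inhibitor, together with listed R-spondins, co-receptors, the β-catenin destruction complex, Naked (Nkd) proteins, Wif1 and the TCF/LEF factors. They came to 55 genes of 52550. Bone marrow cells of C57BL/6 mice were grown for 7 days in 25 ng/ml M-CSF, the macrophage growth factor, and the resulting bone marrow-derived macrophages (BMDMs) were then co-cultured for 48 h with bone marrow stromal cells (BMSCs) across a transwell. The genotypes were MSR1 KO and MSR1 WT, with 3 libraries each, and both groups had been co-cultured, so no library of BMDMs alone entered the comparison. The deletion was carried by the whole animal, and the age of the mice, their number per library and the genotype of the BMSCs were not given in the sources used here.

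Wnt ligands are secreted glycoproteins that bind a Frizzled receptor and the co-receptor LRP5 or LRP6. Without a ligand, a complex of AXIN, APC and the kinases GSK3α and GSK3β marks β-catenin for destruction; with a ligand, β-catenin is spared and acts with TCF/LEF factors on target genes. R-spondins strengthen the signal by keeping Frizzled and LRP at the cell surface, Sfrp proteins and WIF1 capture ligands, and DKK1 blocks LRP5 and LRP6. In bone marrow, stromal cells are a known source of many of these secreted proteins, and Wnt signaling favors bone formation.

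Depth was similar in the groups, at 36143518 to 47417448 counts per library. Values below are CPM, counts scaled to a common library size by TMM, or RPKM, the same per kilobase of exon, wherever genes are set against each other. The targeted gene checked the labels. The MSR1 KO libraries held 2118, 1825 and 2000 counts of Msr1 and the MSR1 WT libraries 7543, 9163 and 9219, and the gene fell by 2.02 on the log2 scale (SE 0.14, adjusted p = 0.00124, edgeR's quasi-likelihood test), so reads on it remained in MSR1 KO. Gene positions are those of the deposited table, whose build was not named, and 48 of the 55 member spans equal the GENCODE ones on GRCm38. Macrophage markers were abundant in both groups, led by Lyz2 at 13398 CPM in MSR1 KO and 14912 CPM in MSR1 WT libraries. Transcripts that serve as stromal markers were also present in all 6 libraries, with Col1a1 at 490 and 586 CPM, and are set beside the Wnt members further on. The BMSCs were kept across a transwell, and which cells gave these transcripts was not tested. P-values measure the spread between libraries only, since nothing in the labels says that each library came from its own culture or animal.

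Genes of the destruction complex, a co-receptor and Dkk3 were the most abundant members per exon length. Ctnnb1, which encodes β-catenin, stood highest at 43.4 ± 6.77 RPKM (SD, n = 3) in MSR1 KO and 47.1 ± 5.87 RPKM (SD, n = 3) in MSR1 WT libraries. Gsk3a followed at 36.7 and 35.4 RPKM, then Lrp6 at 23.5 and 29.2 RPKM. Axin1 stood at 22.3 and 20.2 RPKM and Dkk3 at 17.3 and 23.3 RPKM, so their order differed between the genotypes, while Axin2 of the same complex as Axin1 had only 0.103 and 0.0856 RPKM. In MSR1 KO the means of Ctnnb1 and Gsk3a differed by less than the SD of Ctnnb1. Ligands were scarce. The 19 Wnt genes summed to 3.12 ± 0.510 RPKM (SD, n = 3) in MSR1 KO and 2.77 ± 0.0937 RPKM (SD, n = 3) in MSR1 WT libraries. Of the 10 Frizzled genes, Fzd7 alone held 57.1% ± 2.29 of the summed receptor RPKM in MSR1 KO and 50.3% ± 1.54 in MSR1 WT libraries (SD, n = 3 each). Rspo2 held 95.3% ± 0.941 and 93.3% ± 3.27 of the R-spondin RPKM, and Dkk3 held 83.5% ± 3.35 and 75.5% ± 0.816 of that of the secreted inhibitors.

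**Figure D1:**
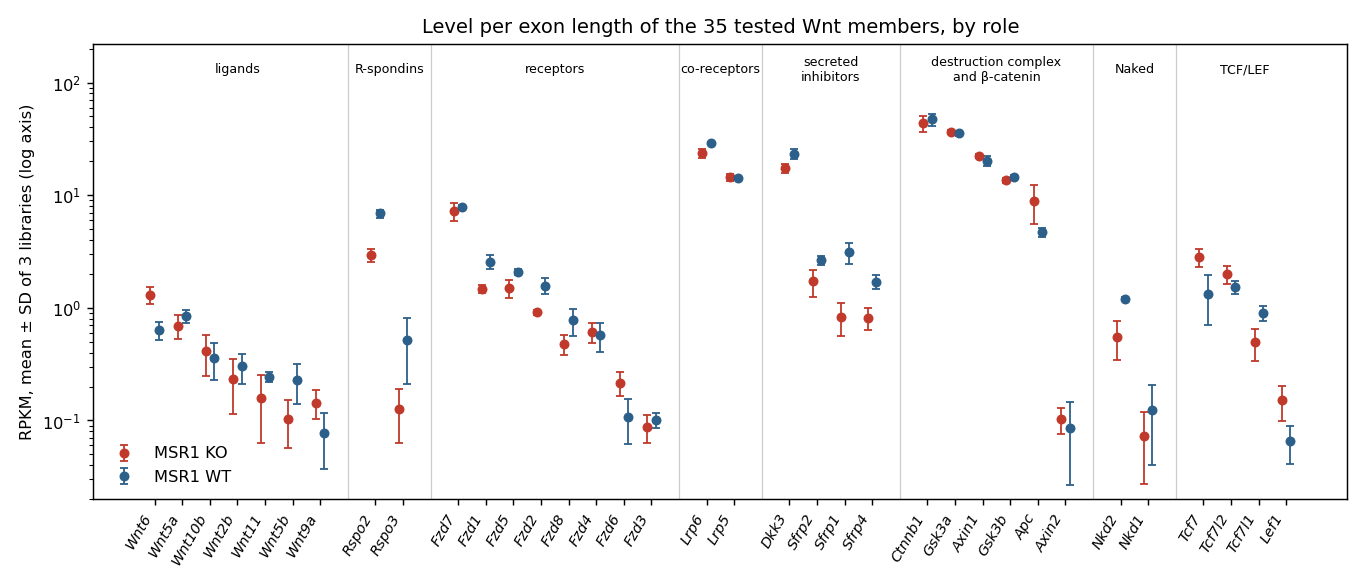
Level of the 35 tested Wnt members in RPKM on a log axis, by role, as the mean and SD of 3 MSR1 KO (red) and 3 MSR1 WT (blue) libraries. Ctnnb1, Gsk3a, Lrp6, Axin1 and Dkk3 stood highest, whereas no ligand exceeded a mean of 1.30 RPKM in either group.

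Of the 55 members, 35 had enough counts to be tested and 20 did not. Those not tested included 10 genes at 0 counts in every library, namely Wnt1, Wnt3, Wnt3a, Wnt7b, Wnt8a, Wnt8b, Wnt9b, Dkk1, Dkk4 and Sfrp5. For these a count of 0 allowed up to 3 counts, or 0.0632 to 0.0835 CPM by library, from counting error only. Listed counts pile up at multiples of 4, and where 1 fragment gave several counts this limit is too low. The other 10 (Wnt2, Wnt4, Wnt7a, Wnt10a, Wnt16, Fzd9, Fzd10, Rspo1, Dkk2 and Wif1) reached at most 25 counts in any library. The usual canonical ligands Wnt1, Wnt3 and Wnt3a and the LRP blocker Dkk1 were therefore not detected in these macrophages, with or without MSR1.

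At an adjusted p under 0.05, 4 of the 35 tested members were lower in the MSR1 KO libraries (11.4%), where 2.66% of all 16402 tested genes were lower. They were Rspo2, Sfrp1, Sfrp4 and Fzd1, and without MSR1 WT replicate 1 Rspo2 was the only one. No member was higher at that limit by edgeR, while 2.25% of all tested genes were. At an unadjusted p under 0.05, 5 members were higher and 13 lower, against 8.65% and 10.2% of all genes. DESeq2's Wald test called 3 members higher (Apc, Tcf7 and Wnt6) and 9 lower at an adjusted p under 0.05. Its lower calls were Dkk3, Fzd1, Fzd2, Lrp6, Nkd2, Rspo2, Rspo3, Sfrp1 and Sfrp4. Of all genes that test called 4.39% higher and 5.17% lower. Under the study's definition of a DEG, a fold change above 1.5 with an unadjusted p under 0.05, 4 members were higher (Apc, Lef1, Tcf7 and Wnt6) and 10 lower, beside 3.59% and 5.05% of all tested genes. The lower ones were Rspo2, Rspo3, Sfrp1, Sfrp2, Sfrp4, Fzd1, Fzd2, Fzd8, Nkd2 and Tcf7l1. The genotypes did not overlap for 14 members that were lower and 5 that were higher in MSR1 KO, beside 13.4% and 12.1% of all tested genes. Of the 35, 22 had a log2 fold change below 0 (62.9%), beside 50.4% of all tested genes. The median log2 fold change of the tested members was -0.28, and that of all tested genes -0.0023.

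**Figure D2:**
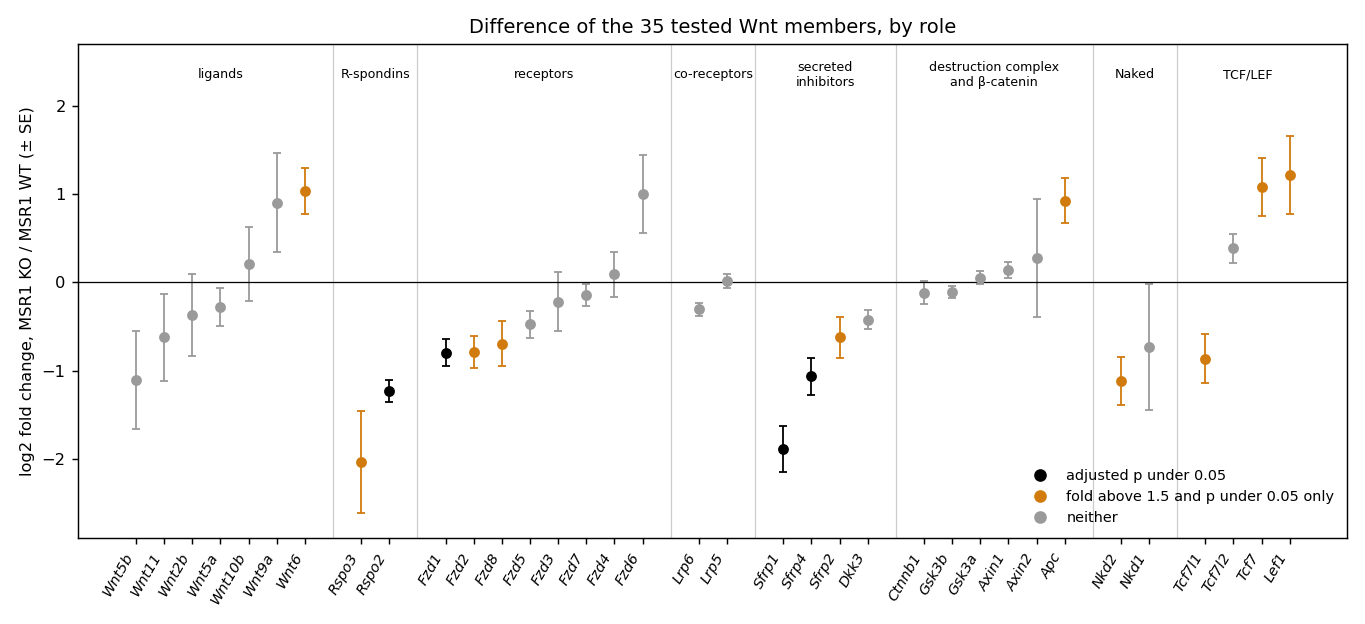
Log2 fold change of MSR1 KO over MSR1 WT with its SE for the 35 tested members, by role. Black marks an adjusted p under 0.05 (Rspo2, Sfrp1, Sfrp4 and Fzd1), orange the study's DEG definition alone and grey neither; both R-spondins and all 4 secreted inhibitors lay below 0.

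Rspo2, the main R-spondin, was lower without MSR1. Rspo2 (ENSMUSG00000051920.6, listed on chromosome 15 from 43020811 to 43170818) had 12.9, 17.03 and 15.1 CPM in MSR1 KO and 36.1, 32.0 and 37.6 CPM in MSR1 WT. The highest MSR1 KO value was thus far below the lowest MSR1 WT value. Rspo2 fell by 1.23 on the log2 scale (SE 0.12, adjusted p = 0.00446, edgeR), and it kept an adjusted p under 0.05 whichever library was left out (0.00620 to 0.0283, edgeR). Rspo3, a second R-spondin, was rare, with 16, 22 and 8 counts in MSR1 KO and 50, 43 and 110 counts in MSR1 WT. Its groups did not overlap either, and its log2 fold change was -2.03 (SE 0.58, adjusted p = 0.0929, edgeR), a size that depended on MSR1 WT replicate 3 and ranged from -2.38 to -1.44 with 1 library left out. Antisense exons of Gm48159 cover 13.1% of the Rspo3 exon bases, and without a stated strand setting reads of the pair cannot be told apart. Together the R-spondins summed to 3.08 ± 0.420 RPKM in MSR1 KO and 7.41 ± 0.831 RPKM in MSR1 WT libraries (SD, n = 3 each).

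Of the 4 tested secreted inhibitors, Sfrp1 and Sfrp4 fell and Sfrp2 and Dkk3 did not pass adjustment by edgeR. Sfrp1 (ENSMUSG00000031548.7, chromosome 8 from 23411502 to 23449632), a decoy that binds Wnt ligands, had 2.67, 3.29 and 5.01 CPM in the MSR1 KO libraries. Its MSR1 WT values were 15.8, 10.4 and 14.7 CPM, all above the MSR1 KO range. It fell by 1.89 on the log2 scale (SE 0.26, adjusted p = 0.0141, edgeR), and lost the call only without MSR1 WT replicate 1 (adjusted p = 0.0645, edgeR). Sfrp1 lies on the chromosome of Msr1, at a distance of 16.2 Mb. Sfrp4 (ENSMUSG00000021319.7, chromosome 13 from 19623104 to 19632994), of the same decoy family, had 2.62, 4.07 and 3.55 CPM in MSR1 KO and 7.79, 5.96 and 7.72 CPM in MSR1 WT. The groups were again apart, and Sfrp4 fell by 1.07 on the log2 scale (SE 0.21, adjusted p = 0.0318, edgeR). With 1 library left out its adjusted p was 0.0510 to 0.126, so this call needed all 6 libraries. Sfrp2, the third detected Sfrp gene, had 2.56, 4.22 and 4.32 CPM in MSR1 KO and 6.31, 5.42 and 5.45 CPM in MSR1 WT. It met the DEG definition without passing adjustment (log2 fold change -0.62, SE 0.23, adjusted p = 0.181, edgeR), although its groups did not overlap. Exons of the antisense gene Gm26771 cover 16.1% of its exon bases.

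Dkk3, the most abundant secreted inhibitor, is a divergent Dickkopf that does not act as the classical LRP blocker DKK1 does. Dkk3 had 55.4, 64.9 and 54.5 CPM in MSR1 KO and 86.2, 69.4 and 79.4 CPM in MSR1 WT. No value of the groups overlapped, and the log2 fold change was -0.43 (SE 0.11, adjusted p = 0.0651, edgeR). The 3 detected Sfrp genes together reached 45.05% of the MSR1 WT level, at 3.37 ± 0.834 against 7.49 ± 1.06 RPKM (SD, n = 3 each), whereas Dkk3 reached 74.4% of its MSR1 WT level. The difference between these changes was not tested.

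Among the Frizzled receptors, Fzd1 fell and the main receptor Fzd7 did not pass the test. Fzd1 (ENSMUSG00000044674.6, chromosome 5 from 4753839 to 4758035) had 6.63, 5.68 and 6.37 CPM in MSR1 KO and 10.7, 9.29 and 12.5 CPM in MSR1 WT. The groups did not overlap, and the gene fell by 0.80 on the log2 scale (SE 0.16, adjusted p = 0.0300, edgeR). Its adjusted p was 0.0554 to 0.112 with 1 library left out, so this call, too, needed all of them. Fzd2, its close relative, had 3.48, 3.34 and 3.18 CPM in MSR1 KO and 6.65, 5.88 and 4.77 CPM in MSR1 WT. Its difference was of the same size and just missed adjustment (log2 fold change -0.79, SE 0.18, adjusted p = 0.0504, edgeR). Fzd8 had 2.42, 3.54 and 2.60 CPM in MSR1 KO and 4.56, 3.41 and 5.91 CPM in MSR1 WT. It met the DEG definition (log2 fold change -0.69, SE 0.26, adjusted p = 0.191, edgeR), yet MSR1 KO replicate 2 was above MSR1 WT replicate 2.

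Fzd5 is a receptor described for Wnt5a in macrophages. It had 8.77, 12.4 and 9.79 CPM in MSR1 KO and 15.0, 13.5 and 14.6 CPM in MSR1 WT. The groups were apart, with a log2 fold change of -0.48 (SE 0.15, adjusted p = 0.127, edgeR), although antisense exons of Gm38058 cover 17.8% of its exon bases. Fzd7 had 29.7, 39.3 and 28.4 CPM in MSR1 KO and 36.3, 34.3 and 37.1 CPM in MSR1 WT. Here the highest value of all was in an MSR1 KO library, and the log2 fold change was -0.14 with a 95% interval of -0.44 to 0.15 (adjusted p = 0.610, edgeR). The receptors other than Fzd7 summed to 5.33 ± 0.439 RPKM in MSR1 KO and 7.84 ± 0.777 RPKM in MSR1 WT libraries (SD, n = 3 each). Fzd3, Fzd4 and Fzd6 were each at 0.608 RPKM or less in both groups, with log2 fold changes of -0.22, 0.09 and 1.00 and adjusted p of 0.272 or more (edgeR).

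Neither co-receptor passed adjustment by edgeR with TMM scaling. Lrp6 did so by DESeq2's Wald test (adjusted p = 0.0163) and by edgeR with library size alone (adjusted p = 0.0439). Lrp6 had 346, 292 and 328 CPM in MSR1 KO and 407, 394 and 396 CPM in MSR1 WT. These groups did not overlap, but the difference was small, with a log2 fold change of -0.31 (SE 0.077, adjusted p = 0.0625, edgeR). Lrp5 had 134, 136 and 153 CPM in MSR1 KO and 146, 136 and 138 CPM in MSR1 WT. Its values were interleaved, and the log2 fold change was 0.01 with a 95% interval of -0.16 to 0.19 (adjusted p = 0.954, edgeR).

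The core of the destruction complex showed no difference that passed the test at the RNA level. RNA counts do not measure phosphorylation or the location of β-catenin. Ctnnb1 (ENSMUSG00000006932.17, chromosome 9 from 120929216 to 120960507) had 198, 212 and 265 CPM in MSR1 KO and 216, 241 and 276 CPM in MSR1 WT. The ranges overlapped, and the log2 fold change was -0.12 with a 95% interval of -0.41 to 0.18 (adjusted p = 0.692, edgeR). Exons of the antisense gene Ulk4 cover 14.6% of its exon bases. Gsk3b had 139, 135 and 126 CPM in MSR1 KO and 149, 145 and 139 CPM in MSR1 WT. Its groups touched without overlapping, at a log2 fold change of -0.11 and a 95% interval of -0.27 to 0.05 (adjusted p = 0.451, edgeR).

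Gsk3a, which encodes the second GSK3 kinase, had 109, 105 and 105 CPM in MSR1 KO and 108, 97.2 and 103 CPM in MSR1 WT. Its 95% interval was -0.11 to 0.22 on the log2 scale (adjusted p = 0.757, edgeR), with 28.3% of its exon bases shared with the antisense gene 9130221H12Rik. The scaffold gene Axin1 had 88.8, 81.8 and 85.2 CPM in MSR1 KO and 86.5, 72.5 and 72.9 CPM in MSR1 WT. Those ranges overlapped as well, with a 95% interval of -0.07 to 0.35 (adjusted p = 0.466, edgeR). For these 4 genes the intervals exclude a change of 1.5-fold in either direction. Axin2, a direct target of β-catenin that feeds back on it, was rare, with 26, 22 and 20 counts in MSR1 KO and 30, 5 and 24 counts in MSR1 WT. MSR1 WT replicate 2 stood apart as the lowest, and the 95% interval ran from -1.25 to 1.80 on the log2 scale (adjusted p = 0.880, edgeR).

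Apc was the exception within the complex. It encodes the scaffold adenomatous polyposis coli and had 84.8, 192 and 153 CPM in MSR1 KO and 78.3, 80.9 and 67.9 CPM in MSR1 WT. All MSR1 KO values were higher, but replicate 1 stood just above the MSR1 WT range while the other two stood well above it. The log2 fold change was 0.92 (SE 0.25, adjusted p = 0.0845, edgeR), which met the DEG definition, and it was 1.20 without MSR1 KO replicate 1 (adjusted p = 0.0218, edgeR).

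Nkd2, an intracellular antagonist that binds Dishevelled, met the DEG definition in the other direction. It had 1.78, 3.77 and 2.45 CPM in MSR1 KO and 5.94, 5.84 and 5.62 CPM in MSR1 WT. The MSR1 WT values were tight and all above those of MSR1 KO (log2 fold change -1.12, SE 0.27, adjusted p = 0.0553, edgeR). Without MSR1 KO replicate 2 the log2 fold change was -1.45 (adjusted p = 0.0293, edgeR). Its relative Nkd1 had 0.970 CPM or less in every library, and its groups overlapped (log2 fold change -0.74, SE 0.71, adjusted p = 0.649, edgeR).

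Of the 7 tested ligands, Wnt6 met the DEG definition and was higher without MSR1. Wnt6 had 2.37, 2.84 and 3.33 CPM in MSR1 KO and 1.26, 1.69 and 1.21 CPM in MSR1 WT. The groups were apart, with a log2 fold change of 1.04 (SE 0.26, adjusted p = 0.0622, edgeR). Per exon length Wnt6 was the most abundant ligand in MSR1 KO, at 1.30 ± 0.221 RPKM, and second to Wnt5a in MSR1 WT, at 0.632 ± 0.119 RPKM (SD, n = 3 each). Wnt5a, the best-known non-canonical ligand of macrophages, had 6.29, 6.10 and 3.92 CPM in MSR1 KO and 7.45, 6.51 and 5.76 CPM in MSR1 WT. Its values overlapped (log2 fold change -0.28, 95% interval -0.77 to 0.22, adjusted p = 0.560, edgeR). Wnt10b, a ligand that drives bone formation, had 0.780, 1.81 and 1.59 CPM in MSR1 KO and 0.776, 1.20 and 1.65 CPM in MSR1 WT, again overlapping (adjusted p = 0.849, edgeR). The remaining 4 tested ligands were at 0.302 RPKM or less in both groups, and their log2 fold changes ran from -1.11 for Wnt5b to 0.90 for Wnt9a with adjusted p of 0.333 or more (edgeR).

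**Figure D3:**
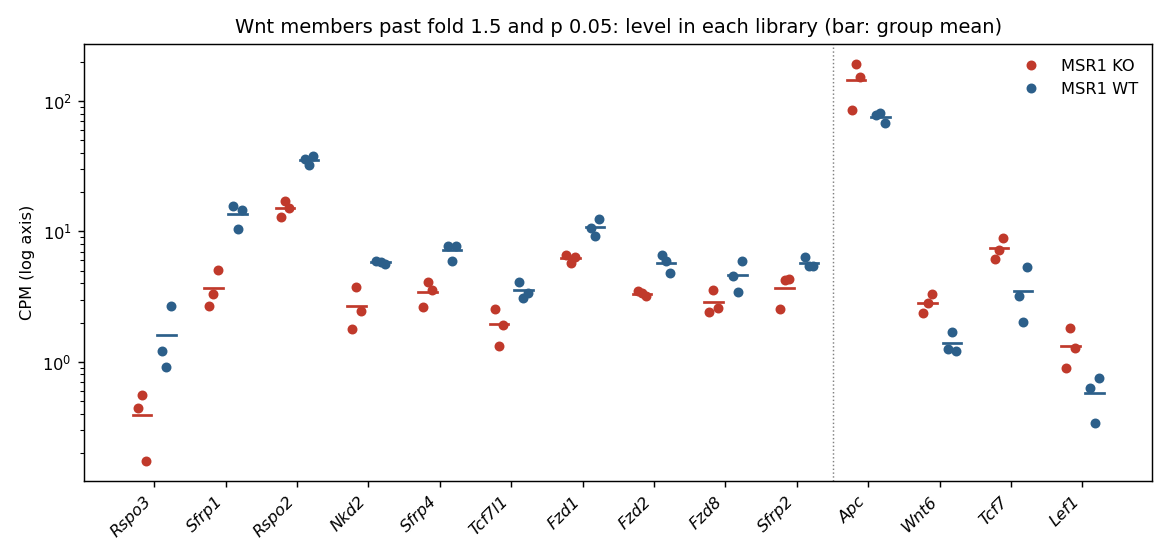
CPM of each library on a log axis for the 14 members that met the study's DEG definition, with MSR1 KO in red, MSR1 WT in blue and bars at the group means. The dotted line separates the 10 lower from the 4 higher members; the groups overlapped for Fzd8 alone.

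No nuclear factor passed adjustment by edgeR with all 6 libraries, while DESeq2's Wald test gave Tcf7 an adjusted p of 0.0140. By edgeR 3 of the 4 met the DEG definition, Tcf7 and Lef1 as higher and Tcf7l1 as lower. Tcf7, which encodes TCF1, had 6.13, 7.23 and 8.84 CPM in MSR1 KO and 3.18, 2.02 and 5.33 CPM in MSR1 WT. All MSR1 KO values were higher, with a log2 fold change of 1.08 (SE 0.33, adjusted p = 0.117, edgeR) that reached 1.51 without MSR1 WT replicate 3 (adjusted p = 0.0264, edgeR). Lef1 was rare, with 32, 72 and 59 counts in MSR1 KO and 26, 16 and 31 counts in MSR1 WT. In CPM its groups were apart (log2 fold change 1.21, SE 0.44, adjusted p = 0.181, edgeR), and exons of the antisense gene Gm43352 cover 13.8% of its exon bases. Tcf7l1, which encodes the factor TCF3 that mostly represses, had 2.56, 1.33 and 1.91 CPM in MSR1 KO and 4.12, 3.08 and 3.36 CPM in MSR1 WT. Every MSR1 KO value was lower (log2 fold change -0.86, SE 0.28, adjusted p = 0.134, edgeR). Tcf7l2 had 17.3, 20.8 and 14.4 CPM in MSR1 KO and 14.6, 14.2 and 11.3 CPM in MSR1 WT, which overlapped (log2 fold change 0.39, SE 0.16, adjusted p = 0.252, edgeR). Of the summed TCF/LEF RPKM, Tcf7l1 held 9.18% ± 3.49 in MSR1 KO and 23.6% ± 3.17 in MSR1 WT libraries, and Tcf7 51.5% ± 7.23 and 34.0% ± 12.2 (SD, n = 3 each).

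TCF1 and LEF1 are also factors of T cells, so T and NK cell markers were read beside them. Of the 11 tested genes of that list, Klrb1c was higher (log2 fold change 1.39, adjusted p = 0.0280, edgeR) and Lck met the DEG definition (1.45, adjusted p = 0.107, edgeR), while the summed level of all 14 was 217 to 279 CPM in MSR1 KO and 221 to 307 CPM in MSR1 WT libraries. Cd4 and Il7r, both also expressed by myeloid cells, made up most of that sum. Over the tested genes of the list the median was 0.60 on the log2 scale, in the direction of Tcf7 and Lef1, and no gene of the list was at 0 in all libraries. The part of such cells in the values of Tcf7 and Lef1 was not tested.

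RefSeq promoter windows on GRCm38.p6, from 250 bases before to 50 after the start, were found for 37 of the 55 members, including 7 of the 14 that met the DEG definition. The windows were searched on both strands for the TCF/LEF letters, taken as CTTTG followed by 2 bases that are each A or T. A match stood in 5 of the 37 member windows and in 0 of the 7, while 16.9% of all 32851 windows held one. The shorter core CTTTG, again on both strands, which every match of the longer letters contains and which was searched after those had been, stood in 53.9% of all windows and in 3 of the 7. Of several RefSeq starts the one nearest the listed 5′ end was taken. The 250 bases before the start are printed for Fzd1, the only member past adjustment with a window, and for Lef1 and Wnt6, a nuclear factor and a ligand that met the DEG definition as higher. They read 5′ to 3′ on the strand of the gene, with the core or its reverse complement in capitals, and lie at chr3:131110073-131110322 (plus strand), chr1:74771642-74771891 (plus strand) and chr5:4758217-4758466 (minus strand), before the annotated exons.
Lef1: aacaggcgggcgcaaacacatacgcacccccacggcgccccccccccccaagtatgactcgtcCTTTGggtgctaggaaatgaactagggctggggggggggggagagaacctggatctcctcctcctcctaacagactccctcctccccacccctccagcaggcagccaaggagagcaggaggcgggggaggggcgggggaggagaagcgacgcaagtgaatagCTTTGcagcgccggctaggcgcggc
Wnt6: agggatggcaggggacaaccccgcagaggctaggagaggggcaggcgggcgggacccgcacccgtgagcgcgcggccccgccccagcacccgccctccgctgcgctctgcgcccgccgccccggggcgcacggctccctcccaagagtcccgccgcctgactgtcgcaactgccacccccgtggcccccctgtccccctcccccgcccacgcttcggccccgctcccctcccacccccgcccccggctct
Fzd1: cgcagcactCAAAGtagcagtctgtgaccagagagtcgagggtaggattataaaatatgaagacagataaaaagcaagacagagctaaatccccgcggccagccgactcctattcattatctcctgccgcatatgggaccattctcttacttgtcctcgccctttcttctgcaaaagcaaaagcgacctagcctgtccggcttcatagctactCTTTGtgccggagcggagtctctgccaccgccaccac
The Wnt6 window held no core, and the Lef1 and Fzd1 windows held 2 each. The GC content of the full windows was 76.7% for Wnt6, 67.3% for Lef1 and 54.0% for Fzd1, beside a median of 52.7% over all windows. These are letters in a window and not evidence of binding.

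The remaining genes of the pathway, taken from hand-written lists, were tested in 3 groups. Of the 114 tested in all, 4 were lower at an adjusted p under 0.05 (3.51%, beside 2.66% of all genes) and 14 by the DEG definition (12.3%, beside 5.05%). Of 51 tested genes of the canonical machinery, Lgr4 was lower at an adjusted p under 0.05 and none was higher; 2 (Lgr4 and Pygo1) met the DEG definition as lower and none as higher, with a median log2 fold change of -0.04. Lgr4, a receptor of the R-spondins, had 146, 178 and 191 counts in MSR1 KO and 291, 413 and 276 counts in MSR1 WT and fell by 0.83 on the log2 scale (SE 0.17, adjusted p = 0.0318, edgeR). It was thus lower along with its ligand Rspo2. Of the 38 genes of the non-canonical branch, 2 fell at an adjusted p under 0.05 and 8 were lower by the DEG definition (21.1%), with none higher by either and a median of -0.14. The ones that fell were the Wnt co-receptors Ptk7 (log2 fold change -0.81, adjusted p = 0.0193, edgeR) and Ryk (-0.76, adjusted p = 0.0316, edgeR). Celsr3 (-0.83) and Vangl1 (-0.81), of the planar polarity pathway, had adjusted p of 0.0643 and 0.126 (edgeR).

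Of 25 tested β-catenin target genes, Wisp2 was lower at an adjusted p under 0.05 (4.0%, beside 2.66% of all genes) and none was higher. By the DEG definition 4 were lower (16.0%, beside 5.05%), none higher, and the median log2 fold change was -0.41. The summed level of all 30 listed targets did not fall, at 845 to 953 CPM in MSR1 KO and 868 to 926 CPM in MSR1 WT libraries. Its MSR1 KO mean was 101% of that of MSR1 WT. Wisp2, a secreted matrix protein, fell by 0.88 on the log2 scale (SE 0.17, adjusted p = 0.0278, edgeR). Fosl1 (-0.60), Birc5 (-0.99) and Twist1 (-0.62) had adjusted p of 0.123 to 0.128 (edgeR). No gene of these 3 lists was higher by edgeR, whereas DESeq2's Wald test called 3 of them higher and 11 lower at an adjusted p under 0.05. The 4 lower calls of these lists were lost without MSR1 KO replicate 1 or 3 and without MSR1 WT replicate 1 or 2.

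Markers of stromal cells moved with the lower Wnt members. The 35 stromal markers summed to 3629, 4624 and 3662 CPM in MSR1 KO and 6139, 5019 and 5532 CPM in MSR1 WT, so every MSR1 KO library was lower and the mean reached 71.4% of that of MSR1 WT. Of 34 tested, 12 were lower at an adjusted p under 0.05 and none higher, beside 2.66% and 2.25% of all tested genes. By the DEG definition 13 were lower and 2 higher (Thy1 and Ibsp), beside 5.05% and 3.59% of all tested genes. The median log2 fold change was -0.41. At the adjusted limit the number of lower markers was 0 without MSR1 WT replicate 1, 1 without MSR1 KO replicate 1 and 3 without MSR1 KO replicate 3. Among those that fell were the receptors Pdgfra (-1.19, adjusted p = 0.0142, edgeR) and Pdgfrb (-0.87, adjusted p = 0.0249, edgeR) and the chemokine gene Cxcl12 (-1.11, adjusted p = 0.0306, edgeR). The most abundant were Fn1, which macrophages also express, Acta2, Col1a2 and Col1a1, and the osteoblast marker Bglap was at 0. Fewer cells of a type and less RNA per cell cannot be told apart in such bulk libraries.

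Divided by the stromal sum, some lower members still had groups apart and others did not. That sum is weighted to its most abundant genes, and single markers such as Pdgfra and Cxcl12 fell about as far as Rspo2. The split therefore cannot show which members fell more than stromal transcripts did. Per 1000 CPM of stromal markers, 5 of the 35 members were still lower in MSR1 KO with no overlap between the groups, namely Rspo2, Rspo3, Sfrp1, Sfrp4 and Nkd2, beside 2.07% of all tested genes. On this scale, whose divisor was itself lower in MSR1 KO, 13 members were higher with no overlap (Lrp5, Gsk3a, Gsk3b, Axin1, Apc, Wnt6, Wnt9a, Tcf7, Tcf7l2, Lef1, Fzd4, Fzd6 and Fzd7), beside 48.3% of all tested genes. Rspo2 had 3.56, 3.68 and 4.11 in MSR1 KO and 5.89, 6.38 and 6.80 in MSR1 WT on this scale, or 59.6% of the MSR1 WT mean, and Sfrp1 was at 38.6%. Dkk3, by contrast, was at 14.7 ± 0.626 in MSR1 KO and 14.1 ± 0.267 in MSR1 WT libraries (SD, n = 3 each), and Fzd5 at 2.59 ± 0.151 and 2.59 ± 0.125. Fzd1, Fzd2, Fzd8, Sfrp2 and Tcf7l1 were at 80.1% to 90.6% of the MSR1 WT mean, and their groups overlapped.

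On a narrower scale the split differed for Fzd1, Fzd5 and Fzd8, so it depended on the divisor. Collagen I (Col1a1 and Col1a2), which macrophages hardly make, was at 79.7% of the MSR1 WT mean with overlapping groups. Per collagen I CPM the same 5 members lay wholly lower in MSR1 KO, and Fzd1, Fzd5 and Fzd8 did as well, beside 3.17% of all tested genes. On that scale 10 members lay wholly higher, beside 25.2% of all tested genes. Apc, Wnt6, Tcf7 and Lef1 lay wholly higher in MSR1 KO on both scales, with Tcf7 at 301% and 270% and Lef1 at 322% and 288% of the MSR1 WT mean. In CPM they were at 211% (Tcf7) and 231% (Lef1). The stromal result had to follow, since these genes were already apart in CPM and every MSR1 KO stromal sum was below every MSR1 WT one. The ratios to stromal markers and collagen I have no test of their own, and the part of stromal transcripts in each difference was not tested.

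**Figure D4:**
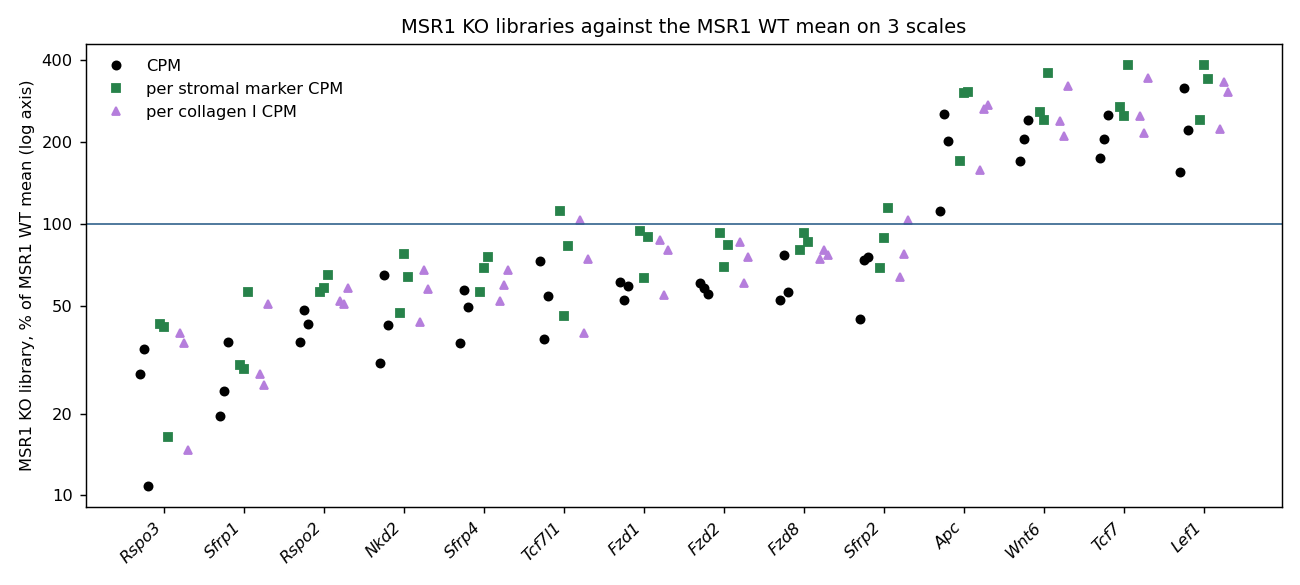
Each MSR1 KO library as a percentage of the MSR1 WT mean (log axis, line at 100) for the 14 members that met the DEG definition, in CPM (black circles), per stromal marker CPM (green squares) and per collagen I CPM (purple triangles). Every MSR1 KO library was below 100 on all 3 scales for 8 of the 10 lower members, the exceptions being Sfrp2 and Tcf7l1; of the 8, Rspo2, Rspo3, Sfrp1, Sfrp4 and Nkd2 also lay below every MSR1 WT library on each scale.

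Markers of several other cell types summed to more in MSR1 KO. The 15 macrophage markers were at 99.1% of the MSR1 WT level with a median log2 fold change of 0.07, and Fcgr1 and Ptprc rose and Mrc1 fell at an adjusted p under 0.05. The dendritic cell list summed to 17.8 to 19.8 CPM in MSR1 KO and 5.69 to 11.4 CPM in MSR1 WT, with a median of 1.63. Dpp4 was higher at an adjusted p under 0.05. By the DEG definition 4 of 9 tested genes were higher, beside 3.59% of all tested genes. B cell markers summed to 196 to 261 CPM in MSR1 KO and 134 to 175 CPM in MSR1 WT, most of it Ighm, with a median of 0.46 over 4 tested genes, of which Ebf1 fell. Endothelial markers summed to 118 to 145 CPM in MSR1 KO and 73.1 to 115 CPM in MSR1 WT, with a median of 0.47, and Pecam1 rose. These 3 sums did not overlap between the groups. Neutrophil markers summed to 724 to 1151 CPM in MSR1 KO and 473 to 872 CPM in MSR1 WT, which overlapped, with a median of 0.38. Here 2 of 12 genes were higher by the DEG definition, beside the same 3.59% of all tested genes. The only erythroid gene tested was called by neither rule. The part of these cells in the Wnt values was not tested.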

How the data were processed

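RNA-seq counts per gene of 3 MSR1 KO and 3 MSR1 WT libraries were used as deposited by the authors, without normalization. The submitters' processing notes name fastp 0.17.1, HISAT2 2.1.0, DESeq2 1.18.1 and R 3.4.3, whereas the methods name TopHat and FPKM; counting program, strand setting and genome build were not given in the sources used here. The deposited signal (size-factor scaled counts) and the authors' own log2 fold change and p-value columns were left out. Spans of 48 of the 55 members equalled those of GENCODE on GRCm38, which gave exon lengths.

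Genes were filtered with filterByExpr, scaled by TMM and tested with glmQLFTest of edgeR 4.0.16 in R 4.3.3, with Benjamini-Hochberg adjustment over all 16402 genes kept. The procedure was tested on simulated data. The SE is the ratio of the log2 fold change to the root of its F statistic, and 95% intervals use the t distribution. Depth was 36143518 to 47417448 counts. Alternatives were DESeq2 1.42.0, its size factors in edgeR, library size alone, other count filters, a replicate block, leaving out each library and, chosen after seeing the data, counts divided by 4. The ratios to stromal markers and collagen I were also chosen then.

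Per-library values are given for members past adjustment or meeting the DEG definition, for Ctnnb1, Gsk3a, Gsk3b, Axin1, Axin2, Apc, Lrp5, Lrp6 and Tcf7l2, and for the 3 highest ligands, receptors and secreted inhibitors. From each other list, genes past adjustment and up to 4 of smallest p meeting the definition could be named. The members and the lists, written from general knowledge, were chosen with earlier results of these data known.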

Additional observations from a re-analysis of the deposited data

How the results depend on the processing

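The direction of every member with per-library values held under each alternative that gave it a value, except for Axin2, Lrp5 and Wnt10b. Such alternatives numbered 11 for Rspo3 and Axin2, 12 for Lef1 and 13 for the others. The log2 fold changes of the exceptions were smaller than their SE, at 0.27 (SE 0.67) for Axin2, 0.01 (SE 0.076) for Lrp5 and 0.21 (SE 0.42) for Wnt10b. Leaving out 1 library put Axin2 at log2 values of -0.21 to 0.73 (lowest without MSR1 WT replicate 2). Lrp5 was then at -0.044 to 0.053 (below 0 without MSR1 KO replicate 3 or MSR1 WT replicate 2). Wnt10b was at -0.025 to 0.50 (below 0 without MSR1 KO replicate 2 or MSR1 WT replicate 1). With library size alone Lrp5 was at -0.020. How many genes passed adjustment varied with the method, and DEG counts less so. DESeq2's Wald test called 720 higher and 848 lower genes in place of 369 and 436, 3 higher and 9 lower Wnt members in place of 0 and 4, 3 higher and 11 lower other Wnt genes in place of 0 and 4, and 2 higher stromal markers in place of 0. With library size alone 7 members were lower, the added ones being Fzd2, Lrp6 and Nkd2. Testing more genes, with no filter beyond a total above 0, gave 237 and 288 calls. With counts divided by 4, 1 stromal marker was higher by the DEG definition in place of 2. Apart from the constructions named, the cause was not tested.

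Same-numbered MSR1 KO and MSR1 WT libraries showed no shared deviation over all genes (correlations of -0.03 to 0.02). With 3 libraries per group this cannot exclude a pairing that affects some genes. With the replicate block 59 genes were higher and 78 lower, 2 members (Rspo2 and Sfrp1), 0 other Wnt genes and 1 stromal marker were lower at an adjusted p under 0.05, and 1 other Wnt gene was higher by the DEG definition.

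With 1 library left out, genes at an adjusted p under 0.05 numbered 18 to 407 higher and 53 to 372 lower, both lowest without MSR1 WT replicate 1. Wnt members numbered 0 to 1 higher (Apc without MSR1 KO replicate 1, Tcf7 without MSR1 WT replicate 3) and 1 to 3 lower, with Rspo2 alone without MSR1 WT replicate 1 and Rspo2 in each case. Other Wnt genes numbered 0 to 4 lower, with 0 in 4 of the 6 fits, and 0 to 1 higher by the DEG definition. Stromal markers numbered 0 to 14 lower and 0 to 1 higher, and 1 to 3 higher by the DEG definition; the 0 lower came without MSR1 WT replicate 1. Wnt members by the DEG definition stayed at 3 to 5 higher and 7 to 11 lower.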

Other observations

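Low counts were not spread evenly. In each library 771 to 879 genes were listed at 4 counts, while 335 to 415 were listed at 3, and 386 to 455 genes at 8 counts, while 164 to 177 were listed at 7. With all counts divided by 4 and rounded, 6 Wnt members were lower and 0 higher at an adjusted p under 0.05 (edgeR), in place of 4 and 0. All 37 mitochondrial genes were at 0 counts in every library.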
